A study of Homo sapiens with 12 samples.

Results

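The 10 genes described here, MED1, CDK12, STARD3, PGAP3, MIEN1, GRB7, ORMDL3, PSMD3, MSL1 and CASC3, are neighbours of ERBB2 on the long arm of chromosome 17. They were chosen by symbol from a list of genes in bands q12 to q21, with ERBB2 itself left out and used as a comparator. The rule for choosing them names genes and bands and uses no measured value, but it was set with earlier results of these data known. They are 10 of the 22170 genes in the table, and all 10 were among the 14179 genes tested.

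The data are messenger RNA libraries of SKBR3, an established line from a human breast tumour with extra copies of ERBB2, with 3 libraries in each of 4 groups. One group received the EZH2 inhibitor GSK126 at 5 µM and the HER2 and EGFR kinase inhibitor lapatinib at 100 nM. The other groups received GSK126 alone, lapatinib alone, or the solvent DMSO alone. GSK126 or its vehicle ran from day -6 for 7 days, and lapatinib or its vehicle was present for the final 24 h before harvest on day 1. Every library came from this 1 cell line, so the values describe 1 tumour's copy of the region. Whether the replicate libraries were separate cultures is not in the labels, so p-values measure only the spread between these libraries, which may be technical. Copy number of the genes was not measured here.

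ERBB2 encodes HER2, a receptor tyrosine kinase, and in HER2-positive breast cancer a stretch of chromosome 17 around it is copied many times. Genes inside that stretch gain copies along with ERBB2, and those that are transcribed tend to be highly expressed. The neighbours do unrelated jobs: GRB7 is an adaptor that docks on activated receptors, MIEN1 is a membrane-anchored protein linked to cell migration, and PGAP3, STARD3 and ORMDL3 act on membrane lipids. PSMD3 is a subunit of the proteasome, and MED1, CDK12, MSL1 and CASC3 act in transcription, chromatin and messenger RNA handling.

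The order along the chromosome, from the centromere outward, was MED1, CDK12, STARD3, PGAP3, ERBB2, MIEN1, GRB7, ORMDL3, PSMD3, MSL1, CASC3, with other genes between some of them. PGAP3 and ERBB2 are transcribed away from each other. The RefSeq (GRCh38.p14) start sites used here lie 37 bases apart, and the promoter windows around them share 136 bases. Other start sites of ERBB2 were not searched, and which start site these cells use was not measured. Promoter windows were given for 8 of the 10 neighbours and for ERBB2, with none for GRB7 or CASC3. The PGAP3 and ERBB2 windows (250 bases before to 50 after the start) are shown because both genes were higher with lapatinib in the results that follow. Capitals mark matches to the motifs searched on both strands: CCGGAAG (ETS factors), TGTTTAC (FOXO or other forkhead factors), GGGCGG (SP or KLF factors), GCCNNNGGC (AP-2) and CACGTG (E-box).
PGAP3, chr17:39688008-39688307, minus strand: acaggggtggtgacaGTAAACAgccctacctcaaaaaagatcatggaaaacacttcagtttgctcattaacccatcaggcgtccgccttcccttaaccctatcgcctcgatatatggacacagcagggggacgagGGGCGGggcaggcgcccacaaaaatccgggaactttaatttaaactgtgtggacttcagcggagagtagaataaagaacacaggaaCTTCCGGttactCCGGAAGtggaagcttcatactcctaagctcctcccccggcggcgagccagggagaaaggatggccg
ERBB2, chr17:39687844-39688143, plus strand: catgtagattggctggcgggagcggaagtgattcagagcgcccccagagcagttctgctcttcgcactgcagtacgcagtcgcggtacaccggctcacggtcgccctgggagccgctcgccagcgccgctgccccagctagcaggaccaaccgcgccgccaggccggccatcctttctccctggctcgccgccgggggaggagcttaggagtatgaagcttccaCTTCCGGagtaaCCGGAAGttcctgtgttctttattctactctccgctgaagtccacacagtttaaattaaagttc
The ERBB2 window held the ETS motif at bases -26 and -14 from the start site, and the PGAP3 window held it at -29 and -17. These are the same pair of matches in the shared stretch, read from opposite strands. The PGAP3 window also held a forkhead match at -235 and an SP or KLF match at -115. Windows of neighbours not called higher with lapatinib held matches as well. ETS matches lay in those of STARD3 and MIEN1, and SP or KLF matches in those of STARD3, MIEN1, ORMDL3 and MSL1. AP-2 matches lay in those of STARD3, PSMD3 and MSL1, and an E-box match in that of MIEN1. Whether any motif relates to the change with lapatinib was not tested. Among 35116 RefSeq promoters, 10.3% held the ETS motif, 3.4% the forkhead motif and 45.0% the SP or KLF motif. The AP-2 motif (23.2% of promoters) and the E-box (7.3%) had no match in either window. A match describes the letters and is not a measured binding site.

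The libraries held 17.7 to 30.3 M reads in genes, with 17.7 M in combination library 1, and the 10 neighbours together took 0.426% to 0.649% of them. Combination library 1 also stood apart in the number of genes with reads, 21669 against 15059 to 17338 in the other 11 libraries. MALAT1, a nuclear RNA, took 4.29% of gene reads in combination library 3 and 4.04% in GSK126 library 1, against 1.05% to 2.67% in the other 10. The deposited values are normalized counts, in which the authors had scaled the reads by library size factors. The summed epithelial and luminal breast markers lay between 364612 and 757446 normalized counts in every library. Spike-ins took 0.384% to 1.72% of the reads of a library, and 0.384% to 1.33% within the GSK126 group alone. By their spike-in proportions the libraries were clustered and cut into 3 kinds, a number that was set and not found from the data. The first kind held all lapatinib and all DMSO libraries with combination libraries 2 and 3. The second held GSK126 libraries 2 and 3 with combination library 1, and the third GSK126 library 1 alone. No GSK126 library shared a kind with a DMSO library, so for that comparison the spike-in kind and the drug cannot be told apart. GSK126 libraries also spread more, with a median SD of the 10 neighbours of 0.29 on the log2 scale, against 0.138 with both drugs, 0.087 with lapatinib and 0.174 with DMSO. Summed endothelial markers were 782.6 to 1070 normalized counts with both drugs and 934.3 to 1560 with GSK126, against 184.9 to 238.0 with lapatinib and 206.0 to 266.8 with DMSO. Summed fibroblast markers were 68.4 to 148.1 with both drugs, 130.3 to 240.4 with GSK126, 202.2 to 243.8 with lapatinib and 248.8 to 392.3 with DMSO. The part of these markers and library measures in the results was not tested, and values without single libraries are given beside the results they change. In bulk RNA, less RNA in every cell and RNA in fewer cells cannot be told apart.

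The neighbours were strongly expressed in DMSO. Exon lengths came from GENCODE v29, matched by symbol. Per kilobase of exon, the median level of the neighbours was 2494 normalized counts per kb, against 124.4 for all tested genes with a length. MIEN1 had the highest level per length of the 10, at 17640 ± 3078 normalized counts per kb (SD, n = 3), and PSMD3 followed at 14650 ± 1258. Those levels lay within 1 SD of each other. STARD3 (7309 ± 602) and GRB7 (5557 ± 509) came next and were apart from each other and from PSMD3. ORMDL3 (2821 ± 549), CASC3 (2167 ± 228), MED1 (1959 ± 68.5), PGAP3 (1934 ± 262) and CDK12 (1782 ± 298) formed a run in which neighbours in the order lay within their SDs. MSL1 was lowest, at 1121 ± 238. ERBB2 itself stood at 27240 ± 2087 normalized counts per kb, the 47th highest of the 13194 tested genes with a length. The neighbours ranked from 85th (MIEN1) to 1746th (MSL1).

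High expression was not shared by every gene of the interval. The 9 other tested genes between MED1 and CASC3 had a median of 119.0 normalized counts per kb in DMSO. GSDMB, a pore-forming gasdermin, stood among them at 11220 per kb and MED24, a Mediator subunit, at 2546. PNMT, which makes adrenaline and lies between STARD3 and PGAP3, had 119.0 per kb. On the centromeric side of MED1 the 13 tested genes had a median of 230.8, and on the telomeric side of CASC3 the 9 tested genes had a median of 666.7.

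**Figure D1:**
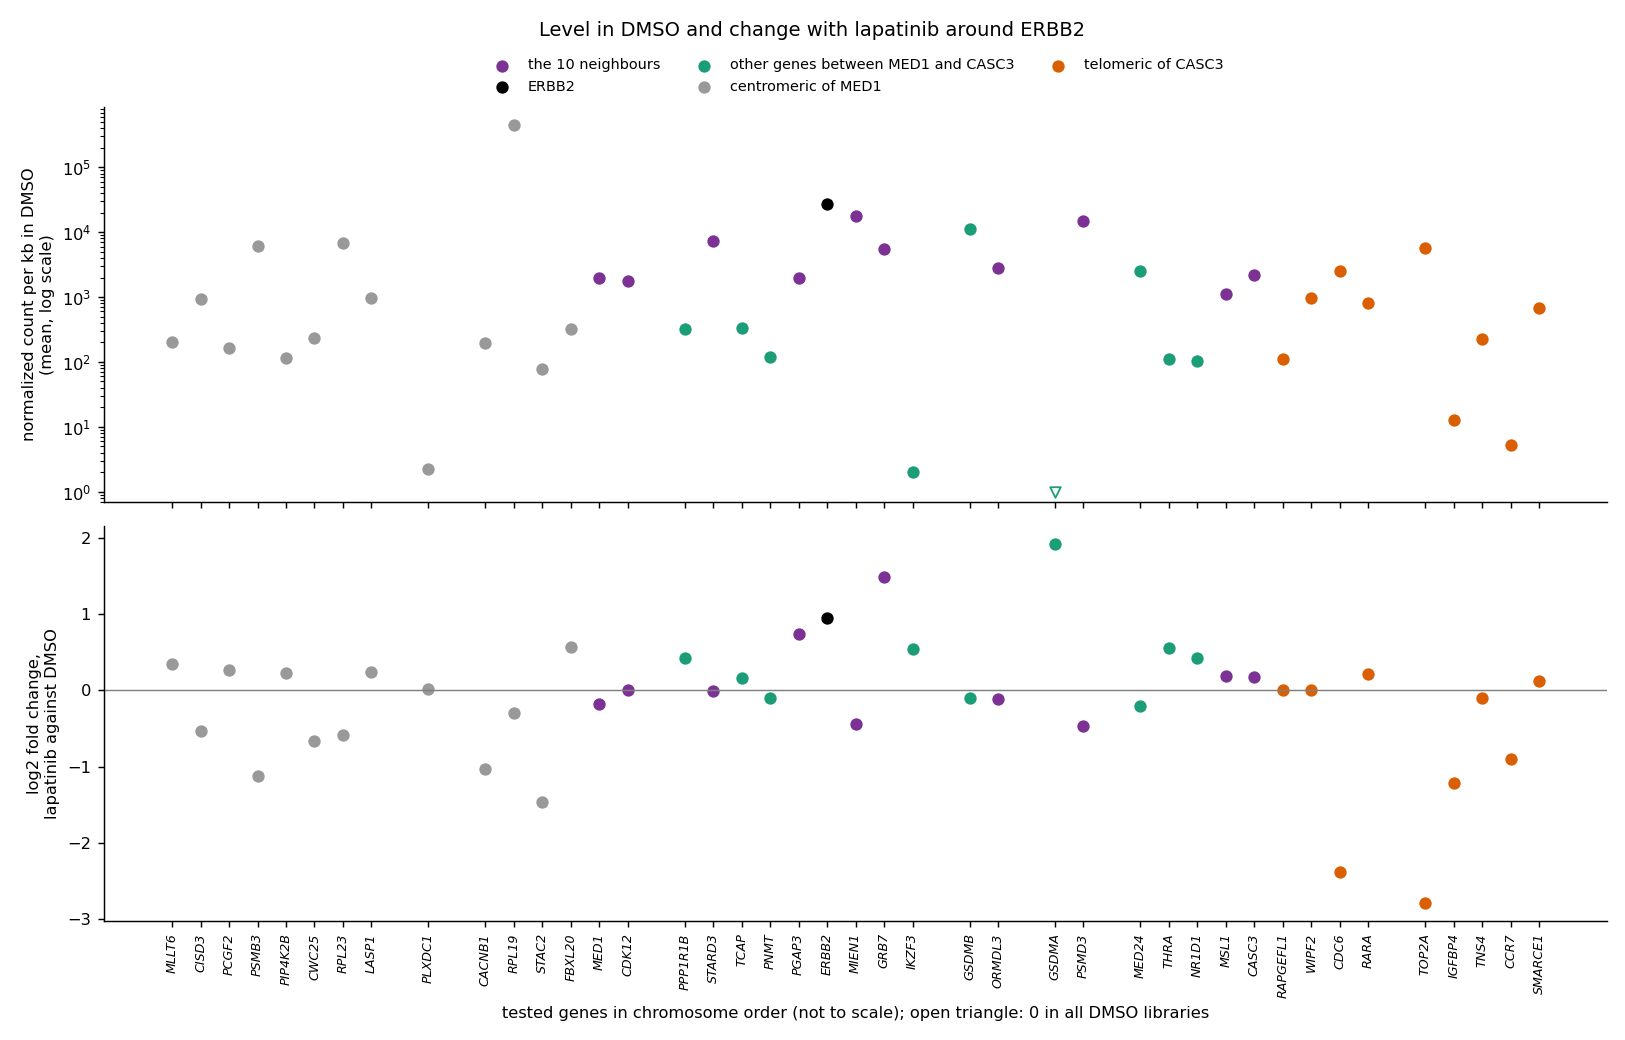
Tested genes from MLLT6 to SMARCE1 in chromosome order, with the mean level in DMSO in normalized counts per kb on a log axis (top) and the log2 fold change of lapatinib against DMSO (bottom). The 10 neighbours all lie above 1000 per kb in DMSO, and GRB7, ERBB2 and PGAP3 stand above the other neighbours in the bottom panel.

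With lapatinib the neighbours did not change as a block. GRB7 and PGAP3 rose, PSMD3 fell, and the other 7 did not pass the test. MIEN1, which lies between ERBB2 and GRB7, was among those 7, with a log2 fold change of -0.44 (adjusted p = 0.0962). Called higher were 2 of 10, where 13.7% of all genes tested were, and called lower was 1 of 10, where 14.3% of all genes were. The median log2 fold change of the 10 was -0.002, against 0.04 for all genes. ERBB2 rose as well, with 296383, 290536 and 305779 normalized counts in lapatinib libraries, against 143494, 166912 and 152454 in DMSO libraries (log2 fold change 0.95 ± 0.20 (SE), adjusted p = 0.00399, limma with Benjamini-Hochberg adjustment over all genes tested, as for every adjusted p here).

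GRB7, whose SH2 domain binds phosphorylated HER2, had 30933, 31234 and 34069 normalized counts with both drugs and 16416, 12703 and 19365 with GSK126. It had 43827, 42369 and 38395 in lapatinib libraries, against 16258, 14799 and 13540 in DMSO libraries. Every library that had received lapatinib lay above every library that had not. With lapatinib alone GRB7 was 2.80-fold higher than in DMSO (log2 fold change 1.48 ± 0.16, adjusted p = 3e-05). With both drugs it was 2.01-fold higher than with GSK126 alone (1.01 ± 0.16, adjusted p = 0.000894) and 2.16-fold higher than in DMSO (1.11 ± 0.16, adjusted p = 0.00014). Scaling to the spike-ins, which moved the median of all genes to -0.49, -0.99 and -0.94 in these comparisons, took the 3 changes to 0.94, -0.03 and 0.11, none of them called. Relative to those medians they were 1.44, 0.96 and 1.04, against 1.45, 0.97 and 1.05 as deposited. Without combination library 1, which leaves libraries of the first spike-in kind on both sides, the change with both drugs against DMSO was 1.14 ± 0.19 (adjusted p = 0.000791). Within the second kind, combination library 1 at 30933 stood above GSK126 libraries 2 and 3 at 12703 and 19365. GRB7 was also the gene of the 10 with the largest change in each of these comparisons. Per length, GRB7 moved to the highest level of the 10 in lapatinib libraries, at 15530 ± 1051 normalized counts per kb, against 4th in DMSO libraries.

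PGAP3, the Golgi enzyme that removes a fatty acid from GPI anchors, was the other neighbour to rise with lapatinib. It had 7422, 7621 and 8547 normalized counts with both drugs and 6048, 4629 and 6958 with GSK126. It had 9145, 9108 and 8199 with lapatinib, against 5972, 5362 and 4542 with DMSO. Lapatinib and DMSO libraries did not overlap, nor did combination and GSK126 libraries. PGAP3 rose by 0.74 ± 0.16 with lapatinib against DMSO (adjusted p = 0.00467) and by 0.58 ± 0.16 with both drugs against DMSO (adjusted p = 0.012, and 0.0586 without DMSO library 3). Under spike-in scaling the same changes were 0.20 ± 0.46 and -0.43 ± 0.46, and were not called. Relative to the median of all genes they were 0.69 and 0.51. For both drugs against GSK126 the difference was 0.44 ± 0.16 and did not pass (adjusted p = 0.0799). It passed without GSK126 library 3 (0.0345) and with total-count scaling (0.59, adjusted p = 0.0141), and was -0.61 under spike-in scaling. Relative to the median of all genes it was 0.387 under spike-in scaling, against 0.396 as deposited. In GENCODE v29, 194 exonic bases of PGAP3 (7.1% of its exons) lie over ERBB2 exons on the opposite strand. Whether the counting used strand is not stated in the sources used here, so reads from that stretch cannot be told apart between PGAP3 and ERBB2.

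PSMD3, a non-ATPase subunit of the lid of the 19S regulatory particle, had 24733, 24016 and 26635 normalized counts with both drugs and 29522, 29837 and 38019 with GSK126. It had 24158, 23159 and 21475 with lapatinib, against 34069, 32078 and 28699 with DMSO. All 6 libraries that received lapatinib lay below all 6 that did not. PSMD3 fell by 0.46 ± 0.14 on the log2 scale with lapatinib against DMSO (adjusted p = 0.0292). That call did not hold with no filter on low values (adjusted p = 0.092), with total-count scaling (0.158) or with spike-in scaling (-1.00 ± 0.44, adjusted p = 0.19). Nor did it hold without DMSO library 1 (0.0983) or 2 (0.0681) or without lapatinib library 1 (0.065), 2 (0.0809) or 3 (0.116). The differences for both drugs against GSK126 (-0.36 ± 0.14, adjusted p = 0.0984) and against DMSO (-0.33 ± 0.14, adjusted p = 0.0812) did not pass. Both passed by DESeq2 (adjusted p = 0.0347 and 0.0391) and with limma under spike-in scaling (-1.40, adjusted p = 0.0282, and -1.34, adjusted p = 0.0237). Relative to the median of all genes, these changes under spike-in scaling were -0.411 and -0.398, against -0.402 and -0.388 as deposited. Among the 17 other genes of the 19S particle, which unfolds ubiquitin-tagged proteins, 12 fell with lapatinib against DMSO and none rose (median log2 fold change -0.64), where 14.3% of all genes fell and 13.7% rose. PSMD2 and PSMD14 were among them, at -0.76 ± 0.12 (adjusted p = 0.000597) and -0.95 ± 0.15 (adjusted p = 0.000546).

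**Figure D2:**
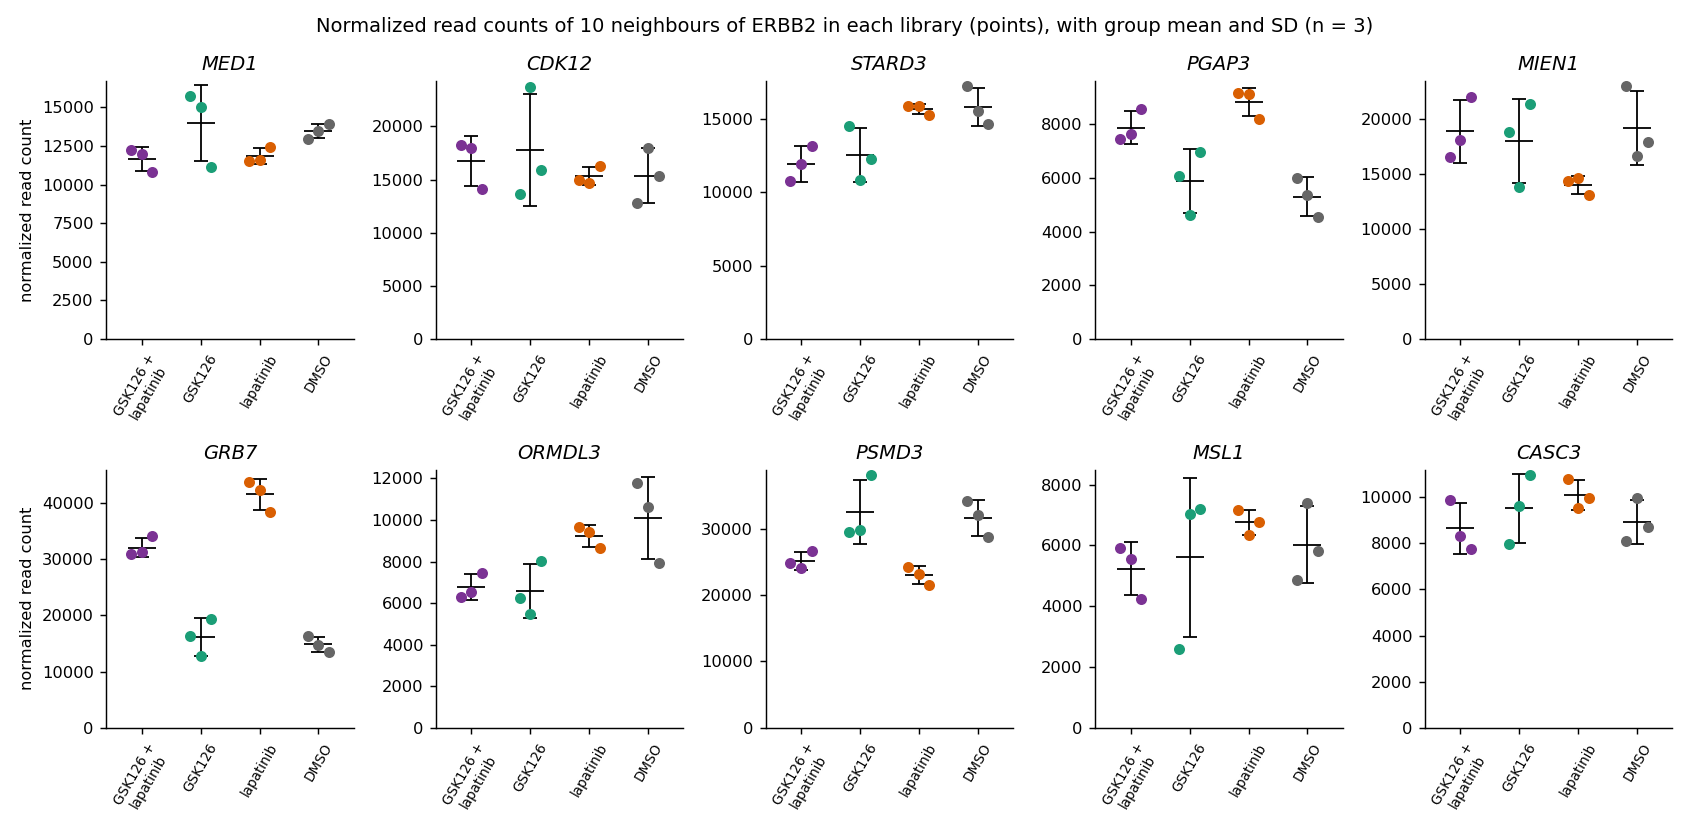
Normalized read counts of the 10 neighbours of ERBB2 in each library (points), with the mean and SD of each group of 3 libraries (bars), on linear axes from 0. GRB7 separates the libraries with lapatinib (30933 to 43827) from those without (12703 to 19365), and MSL1 has 1 low GSK126 library at 2600.

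MIEN1, which lies between ERBB2 and GRB7, was called in no comparison between groups. It had 16493, 18018 and 21992 normalized counts with both drugs and 18741, 13783 and 21331 with GSK126. It had 14304, 14642 and 13034 with lapatinib, against 22915, 16584 and 17906 with DMSO. MIEN1 shares 0 exonic bases with ERBB2 in GENCODE v29, while RefSeq lists the genes as overlapping, so the size of any shared stretch depends on the annotation. Lapatinib libraries lay below all DMSO and all combination libraries, yet neither difference passed. Against DMSO the log2 fold change with lapatinib was -0.44 ± 0.19 (adjusted p = 0.0962, and 0.0176 when the lapatinib and DMSO libraries were fitted alone), and for both drugs against lapatinib it was 0.42 ± 0.19 (adjusted p = 0.155). The second difference passed with total-count scaling (0.51, adjusted p = 0.0238) and with only the combination and lapatinib libraries fitted (0.0173), and was -0.05 under spike-in scaling. Relative to the median of all genes it was 0.441 under spike-in scaling, against 0.445 as deposited.

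STARD3, which carries cholesterol between late endosomes and other membranes, had 10761, 11906 and 13174 normalized counts with both drugs and 14499, 10833 and 12285 with GSK126. It had 15887, 15884 and 15291 with lapatinib, against 17265, 15579 and 14694 with DMSO. All libraries with GSK126 lay below all libraries without it. With both drugs STARD3 fell by 0.41 ± 0.14 against DMSO (adjusted p = 0.0332), a call lost with no filter on low values (adjusted p = 0.0714), with total-count scaling (-0.16, adjusted p = 0.208), without DMSO library 1 (0.118) or 2 (0.0627) or combination library 1 (0.128) or 2 (0.0882). The difference was of similar size, and did not pass, for both drugs against lapatinib (-0.40 ± 0.14, adjusted p = 0.0725). It passed by DESeq2 (0.0325), with total-count scaling (-0.31, adjusted p = 0.0412) and with only those libraries fitted (0.00961). GSK126 alone against DMSO gave -0.34 ± 0.14 (adjusted p = 0.135, and 0.0236 without GSK126 library 1). Lapatinib alone against DMSO gave -0.01 ± 0.14 (95% interval -0.32 to 0.29).

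ORMDL3, an endoplasmic reticulum protein that restrains serine palmitoyltransferase, the first enzyme of sphingolipid synthesis, was the 1 neighbour called with GSK126 alone. It had 6301, 6536 and 7471 normalized counts with both drugs and 6246, 5461 and 8015 with GSK126. It had 9648, 9422 and 8631 with lapatinib, against 11768, 10630 and 7934 with DMSO. GSK126 and DMSO libraries overlapped by 1 library, since GSK126 library 3 stood above DMSO library 3, while combination libraries lay below all lapatinib and all DMSO libraries. ORMDL3 fell by 0.62 ± 0.17 with GSK126 against DMSO (adjusted p = 0.0307), and 1 of 10 called lower stands against 3.93% of all genes. The call was lost without DMSO library 1 (0.132) or 2 (0.0932) or GSK126 library 2 (0.0827), and with total-count scaling (0.0645) or spike-in scaling (1.0). It was also lost in a fit of only these groups (0.205) and with the spike-in kind as a term (0.71). The change was -0.58 ± 0.47 under spike-in scaling and -0.44 ± 0.32 with the kind as a term. GSK126 and DMSO libraries share no kind, so that term cannot separate the kind from the drug within this comparison. With both drugs against DMSO it fell by 0.56 ± 0.17 (adjusted p = 0.0206), a call lost with total-count scaling (-0.31, adjusted p = 0.156), without DMSO library 1 (0.0932) or 2 (0.0623) or combination library 1 (0.0743) or 2 (0.0675). Against lapatinib the combination differed by -0.45 ± 0.17 (adjusted p = 0.102). SPTSSB, a small subunit of serine palmitoyltransferase, was the 1 gene of the other 7 ORMDL and serine palmitoyltransferase genes called with GSK126 against DMSO, at 135.2 ± 37.7 normalized counts with GSK126 and 652.0 ± 92.5 with DMSO (log2 fold change -2.29 ± 0.23, adjusted p = 2e-05).

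The 4 genes of transcription, chromatin and RNA handling passed the limma test in no comparison between groups, with 0 unadjusted p under 0.05 and 0 calls by edgeR or DESeq2. In limma fits with other settings, MED1 passed lower for both drugs against GSK126 under spike-in scaling (-1.29, adjusted p = 0.045) and without GSK126 library 3 (-0.40, adjusted p = 0.0443), and against DMSO under spike-in scaling (-1.21, adjusted p = 0.0429). Relative to the median of all genes, the 2 changes under spike-in scaling were -0.295 and -0.275, against -0.286 and -0.266 as deposited. MSL1 passed lower for both drugs against lapatinib when only those libraries were fitted (adjusted p = 0.0335). MED1, the Mediator subunit that contacts nuclear receptors, had 12211, 11999 and 10793 normalized counts with both drugs and 15730, 14995 and 11159 with GSK126. It had 11540, 11560 and 12454 with lapatinib, against 12971, 13476 and 13911 with DMSO. Both groups with lapatinib lay below DMSO without overlap, with log2 fold changes against DMSO of -0.21 ± 0.14 for both drugs (adjusted p = 0.267) and -0.18 ± 0.14 for lapatinib (adjusted p = 0.364).

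CDK12, the kinase that with cyclin K phosphorylates RNA polymerase II during elongation, had 18257, 17920 and 14066 normalized counts with both drugs and 13675, 23696 and 15914 with GSK126. It had 14941, 14696 and 16299 with lapatinib, against 12815, 17954 and 15290 with DMSO. The libraries overlapped in every comparison between groups, and lapatinib against DMSO gave 0.01 ± 0.20 (95% interval -0.43 to 0.45). Its 5 listed partners and relatives, CDK13, CCNK, CDK9, CCNT1 and CCNT2, had a median log2 fold change of 0.27 with lapatinib against DMSO. None of them was called by limma, edgeR or DESeq2 in any comparison, and 0 had an unadjusted p under 0.05.

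MSL1, the scaffold of a complex that acetylates histone H4, had 5913, 5553 and 4252 normalized counts with both drugs and 2600, 7021 and 7198 with GSK126. It had 7174, 6339 and 6776 with lapatinib, against 4864, 7393 and 5820 with DMSO. GSK126 library 1 stood far below the other GSK126 libraries. With it, GSK126 against DMSO was -0.22 ± 0.32 (adjusted p = 0.717), and without it 0.26 ± 0.18 (adjusted p = 0.303).

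CASC3, a core protein of the exon junction complex, had 9876, 8304 and 7763 normalized counts with both drugs and 7968, 9604 and 10962 with GSK126. It had 10794, 9537 and 9941 with lapatinib, against 8111, 9946 and 8703 with DMSO. The libraries overlapped in every comparison, with log2 fold changes between -0.23 and 0.18. Of the other exon junction complex genes, 3 of 5 tested fell with lapatinib against DMSO, where 14.3% of all genes did. MAGOHB and MAGOH had log2 fold changes of -1.50 ± 0.23 (adjusted p = 0.000445) and -0.67 ± 0.15 (adjusted p = 0.00447).

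With both drugs against DMSO, 2 of the 10 neighbours rose (GRB7 and PGAP3), where 22.0% of all genes did, and 2 fell (STARD3 and ORMDL3), where 20.1% did. Under spike-in scaling 0 rose and 4 fell, which were STARD3, ORMDL3, MED1 and PSMD3. With that scaling 599 of all 14179 genes tested rose and 4111 fell. Both drugs against GSK126 called GRB7 higher, 1 of 10, where 8.48% of all genes were. Under spike-in scaling 0 were higher there and 2 lower, MED1 and PSMD3, where 13 of all 14179 genes tested were higher and 3044 lower. Both drugs against lapatinib called 0 of 10, where 17.9% of all genes were called in either direction. In that comparison 4 neighbours had an unadjusted p under 0.05, edgeR called 0 and DESeq2 called 1. A fit of only the combination and lapatinib libraries called 5: GRB7, MIEN1, ORMDL3, STARD3 and MSL1. That fit called 2544 of 13610 genes higher and 2433 lower, against 1637 and 900 of 14179 in the main test. ERBB2 was lower with both drugs than with lapatinib alone, with 151017, 185485 and 180505 normalized counts against 296383, 290536 and 305779 (log2 fold change -0.79 ± 0.20, adjusted p = 0.0141).

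**Figure D3:**
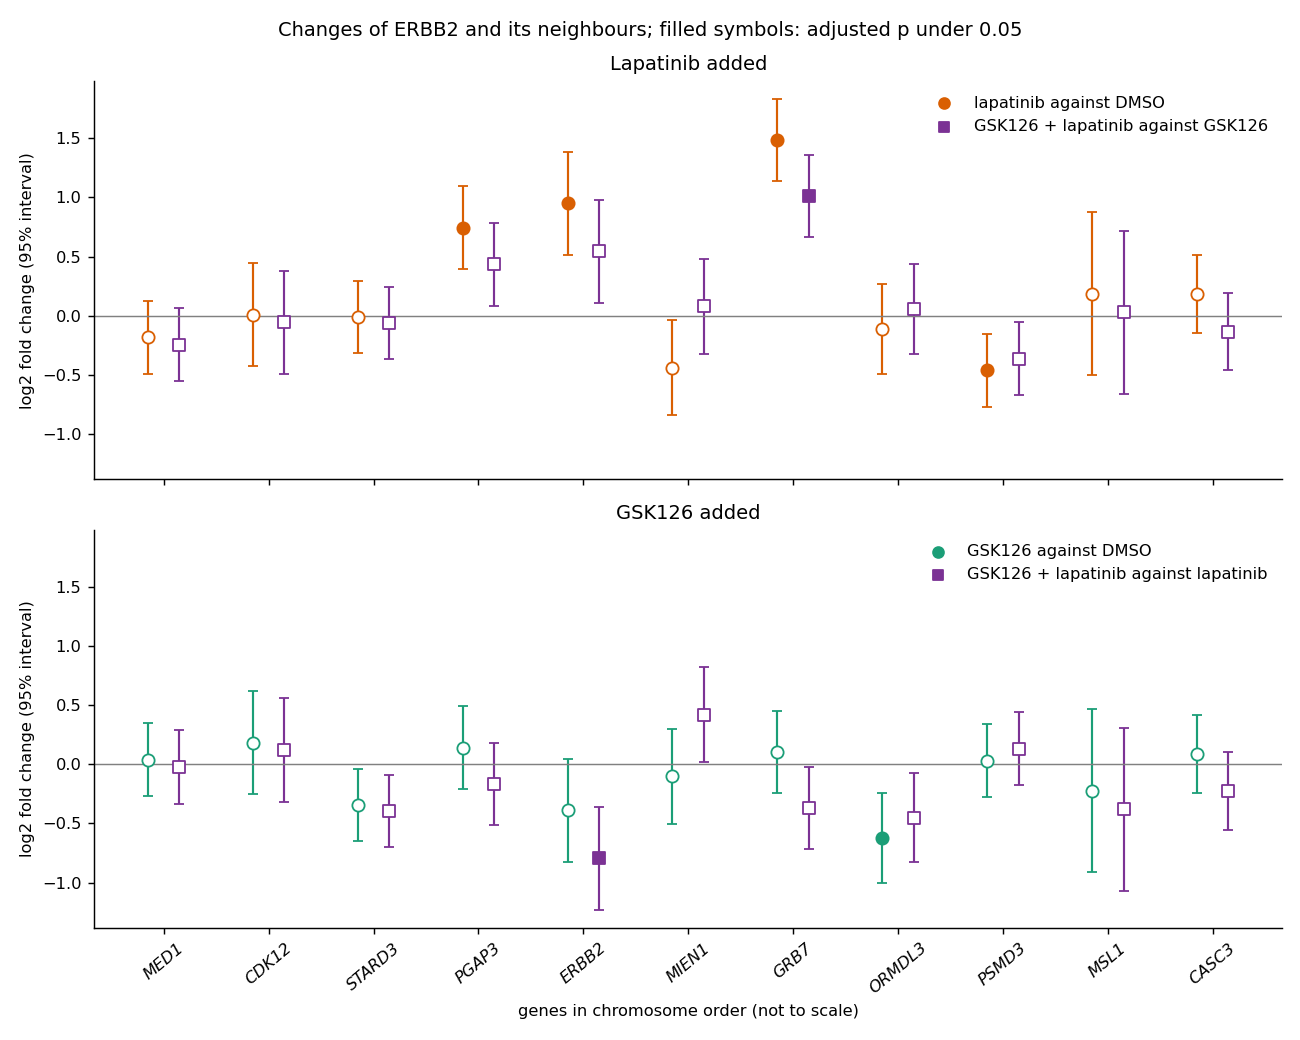
Log2 fold changes with 95% intervals for ERBB2 and its neighbours in chromosome order, for adding lapatinib (top) and adding GSK126 (bottom), each with and without the other drug. Filled symbols passed an adjusted p of 0.05; GRB7 is filled in both comparisons of the top panel, at 1.48 and 1.01, and ERBB2 is filled in the bottom panel at -0.79.

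Whether the effect of lapatinib differed in the presence of GSK126 was tested as an interaction. None of the 10 neighbours was called by limma, none had an unadjusted p under 0.05, and edgeR and DESeq2 each called 0, where limma called 0.0212% of all genes. The largest differences were 0.52 ± 0.26 for MIEN1 (95% interval -0.05 to 1.09, adjusted p = 0.89) and -0.47 ± 0.23 for GRB7 (-0.97 to 0.02, adjusted p = 0.864). For PGAP3 the interval ran from -0.80 to 0.19.

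A gene that shares the copies of ERBB2 could still change in its own way, so each neighbour's change was also set against that of ERBB2 in the same libraries, where the scaling of a library cancels. With lapatinib against DMSO, 7 of 10 neighbours had a lower change than ERBB2, where 57.5% of all genes did. Each difference subtracts the same ERBB2 values, and its median was -0.95 for the neighbours and -0.91 for all genes. The differences from ERBB2 were -1.41 ± 0.27 for PSMD3 (adjusted p = 0.000301), -1.39 ± 0.28 for MIEN1 (adjusted p = 0.000477), -1.13 ± 0.21 for MED1, -1.06 ± 0.28 for ORMDL3, -0.96 ± 0.22 for STARD3, -0.94 ± 0.27 for CDK12 and -0.77 ± 0.27 for CASC3. The CASC3 difference missed the threshold without DMSO library 2 (adjusted p = 0.0548) or 3 (0.0541) or lapatinib library 2 (0.0619) or 3 (0.065). MIEN1, whose gene is next to ERBB2, stood at 4.71% ± 0.40 of the ERBB2 count with lapatinib and 12.6% ± 3.1 with DMSO (SD, n = 3 each).

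The remaining 3 neighbours did not differ from ERBB2 past the threshold. PGAP3 differed by -0.21 ± 0.26 (95% interval -0.76 to 0.35, adjusted p = 0.512), GRB7 by 0.53 ± 0.27 (adjusted p = 0.0975) and MSL1 by -0.76 ± 0.39 (adjusted p = 0.0992). With the lapatinib and DMSO libraries fitted alone, GRB7 passed above ERBB2 (adjusted p = 0.00931) and MSL1 below it (0.000365), and MSL1 also passed with the spike-in kind as a term (0.00286). PGAP3 stood at 3.09%, 3.13% and 2.68% of the ERBB2 count in lapatinib libraries, against 4.16%, 3.21% and 2.98% in DMSO libraries, which overlap. GRB7 stood at 14.8%, 14.6% and 12.6% with lapatinib, against 11.3%, 8.87% and 8.88% with DMSO, with no overlap. A miss of the threshold does not show that these genes changed as ERBB2 did.

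With GSK126 added to lapatinib, the ratios moved the other way, for the neighbours (median difference from ERBB2 0.60) and for all genes (0.77). Both drugs against lapatinib gave a higher change than that of ERBB2 for MIEN1 (1.21 ± 0.28, adjusted p = 0.00239), PSMD3 (0.93 ± 0.27, adjusted p = 0.00982), CDK12 (0.91 ± 0.27, adjusted p = 0.0111) and MED1 (0.77 ± 0.21, adjusted p = 0.0065), 4 of 10 where 51.3% of all genes were higher than ERBB2. Without combination library 1 the count was 2, since CDK12 (adjusted p = 0.0696) and PSMD3 (0.0509) then missed the threshold. Both drugs against GSK126 called 3 of 10 lower than ERBB2, where 30.0% of all genes were: PSMD3 (-0.91 ± 0.27, adjusted p = 0.0171), MED1 (-0.79 ± 0.21, adjusted p = 0.00872) and STARD3 (-0.61 ± 0.22, adjusted p = 0.0473). None of these 3 passed without combination library 2 (adjusted p = 0.0855, 0.0514 and 0.169) or with the spike-in kind as a term (0.0785, 0.0894 and 0.16). Without combination library 3, MED1 (0.0505) and STARD3 (0.0943) were lost, and STARD3 was also lost without combination library 1 (0.0913) or GSK126 library 3 (0.104). Without GSK126 library 1 the count was 7. GSK126 alone against DMSO called 0 of 10, where 15.3% of all genes differed from ERBB2 in either direction, with 1 unadjusted p under 0.05 (CDK12). Without GSK126 library 1 that count was 4: CDK12 (adjusted p = 0.00398), MSL1 (0.00992), CASC3 (0.0152) and PGAP3 (0.0471). 

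**Figure D4:**
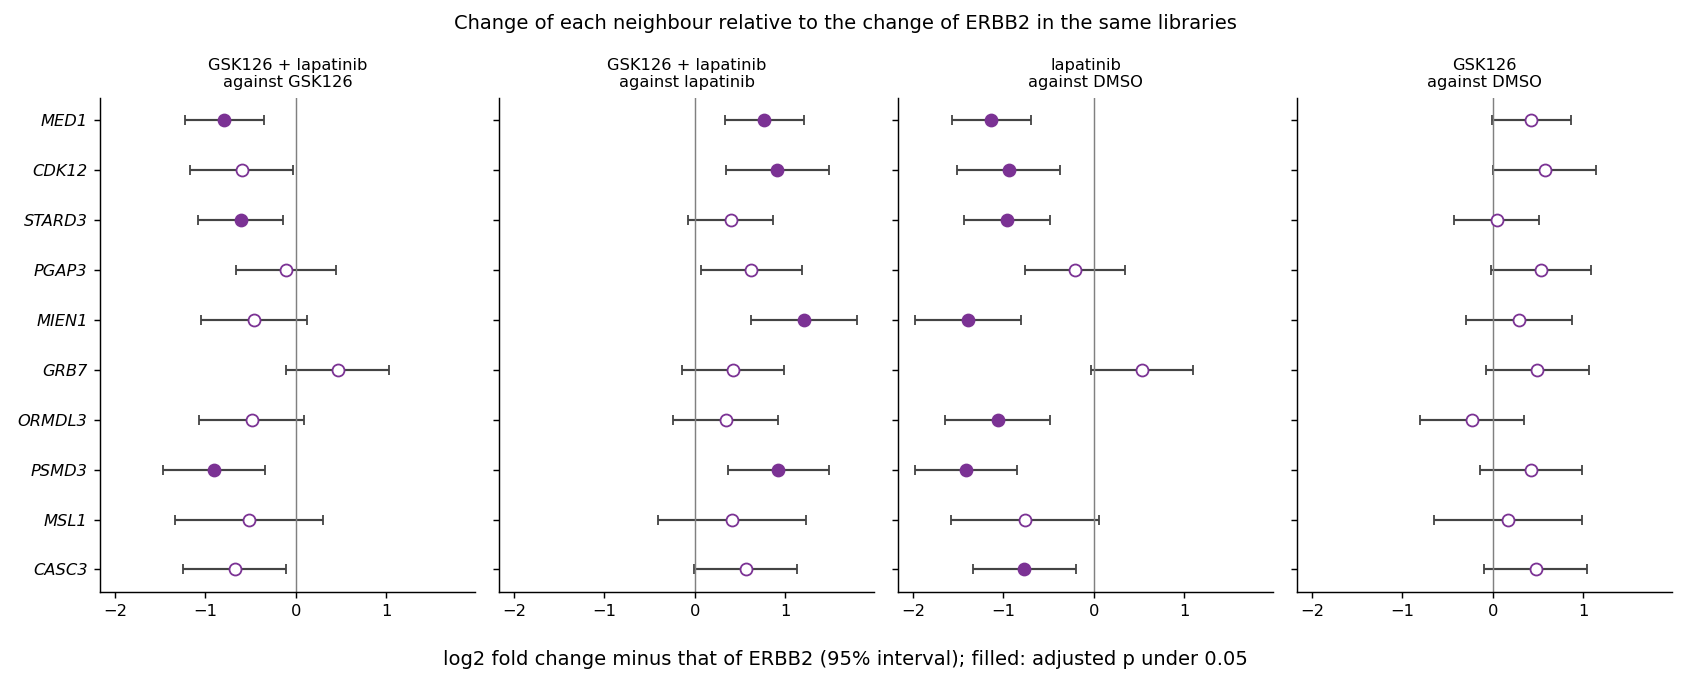
Log2 fold change of each neighbour minus that of ERBB2 in the same libraries, with 95% intervals, for 4 comparisons; filled points passed an adjusted p of 0.05. With lapatinib against DMSO, 7 points lie below 0 and are filled, and GRB7 is the 1 neighbour with a difference above 0, at 0.53.

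Other genes of the region and of the neighbours' pathways gave a background to these values. Of the 9 other tested genes between MED1 and CASC3, limma called 0 for lapatinib against DMSO (median 0.42), with 3 unadjusted p under 0.05, 1 call by edgeR and 3 by DESeq2. In that comparison limma called 13.7% of all genes higher and 14.3% lower. GSK126 against DMSO called 1 higher and 2 lower among them, where 10.7% of all genes were higher and 3.93% lower. IKZF3, a lymphoid transcription factor that lies next to GRB7 on its telomeric side, had 96.6 ± 21.2 normalized counts with GSK126 and 20.01 ± 8.4 with DMSO (2.28 ± 0.34, adjusted p = 0.000572), while GRB7 itself differed by 0.10 ± 0.16 (adjusted p = 0.745). PPP1R1B, which encodes the phosphatase inhibitor DARPP-32 and lies between CDK12 and STARD3, had 267.6 ± 50.8 with GSK126 and 728.8 ± 52.7 with DMSO (-1.46 ± 0.16, adjusted p = 4.09e-05). With both drugs against lapatinib, PNMT had 23.5 ± 4.7 normalized counts with both drugs and 157.8 ± 31.6 with lapatinib (-2.69 ± 0.39, adjusted p = 0.000314).

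Of all genes tested, 13.7% rose and 14.3% fell with lapatinib against DMSO, the comparison of the list counts that follow unless another is named. Outside the interval, on the telomeric side, 2 of 9 tested genes fell with lapatinib against DMSO: TOP2A, which encodes a topoisomerase of dividing cells, at a log2 fold change of -2.78 ± 0.25 (adjusted p = 6.07e-06) and the replication licensing gene CDC6 at -2.37 ± 0.13 (adjusted p = 1.28e-07). On the centromeric side 1 of 13 rose and 3 fell, with FBXL20 at 0.57 ± 0.12 (adjusted p = 0.00377) and CACNB1 at -1.02 ± 0.16 (adjusted p = 0.000503). Of 31 other Mediator genes, 1 rose and 5 fell with lapatinib, with CDK19 at 0.58 ± 0.16 (adjusted p = 0.0154) and MED10 at -0.49 ± 0.15 (adjusted p = 0.0301). Of 10 tested START-domain and sterol transfer genes, 2 rose, STARD5 by 1.38 ± 0.29 (adjusted p = 0.0038) and STARD13 by 1.27 ± 0.25 (adjusted p = 0.00231). Of 7 ORMDL and serine palmitoyltransferase genes, 3 rose, among them SPTLC2 by 0.93 ± 0.17 (adjusted p = 0.00164). Of the 4 other adaptors listed with GRB7, which are GRB10, GRB14, GRB2 and SHC1, limma, edgeR and DESeq2 called 0 with lapatinib against DMSO, and 0 had an unadjusted p under 0.05. GRB10, of the same family as GRB7, rose with GSK126 against DMSO, with 640.8 ± 49.9 normalized counts with GSK126 and 213.3 ± 16.4 with DMSO (1.58 ± 0.14, adjusted p = 1.18e-05). Of 5 tested genes for remodelling GPI anchors, 1 rose with lapatinib, MPPE1 by 0.64 ± 0.18 (adjusted p = 0.0217). Of the 3 other genes of the MSL complex, 0 were called by limma, edgeR or DESeq2 with lapatinib or with GSK126 alone, and 0 had an unadjusted p under 0.05.

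With both drugs against GSK126, 4 of the 17 other 19S genes fell and none rose, and against DMSO 7 fell and none rose. Of all genes, 9.71% fell in the first comparison and 20.1% in the second. PSMD2 had 9742 ± 239 normalized counts with both drugs, 15367 ± 1698 with GSK126 and 17202 ± 843 with DMSO. Of the 5 tested exon junction genes, 2 fell with both drugs against GSK126 and 3 against DMSO, with MAGOHB at -0.84 ± 0.23 (adjusted p = 0.0235) and -1.43 ± 0.23 (adjusted p = 0.000319). Of the 7 ORMDL and serine palmitoyltransferase genes, 3 rose with both drugs against GSK126, where 8.48% of all genes rose. With both drugs against lapatinib 1 of the 7 fell, where 6.35% of all genes fell. The gene that fell was SPTSSB, at 141.5 ± 28.3 normalized counts with both drugs and 841.4 ± 63.6 with lapatinib (-2.58 ± 0.23, adjusted p = 5.42e-06).

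Across the 12 libraries the neighbours did not form 1 block. Pearson's r of log2(normalized count + 1) is given as a description, since libraries of a group share their treatment and every gene of a library shares its depth. GRB7 and PGAP3 had the highest r among pairs of neighbours, 0.96, and kept 0.98 after the mean of each group was taken out. A high r within groups was not particular to that pair. With group means removed, PGAP3 and ORMDL3 had 0.94, ORMDL3 and PSMD3 0.91, and GRB7 had 0.89 with ORMDL3 and 0.88 with MIEN1. Other pairs ran opposite, such as MED1 and PSMD3 (-0.92) and CDK12 and MIEN1 (-0.895). Over the 12 libraries with group means kept, STARD3 and ORMDL3 had 0.85, and MSL1 and CASC3 had 0.79. With group means removed these pairs had 0.55 and 0.85. The next values are again with group means kept. ERBB2 had r of 0.75 with GRB7, 0.62 with PGAP3 and -0.85 with PSMD3. With group means removed, ERBB2 had -0.43 with GRB7 and -0.34 with PGAP3. The neighbours spread most between GSK126 libraries, with a median SD of 0.29 against 0.087 to 0.174 in the other groups. Those 3 libraries therefore tend to weigh most in each r with group means removed.

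**Figure D5:**
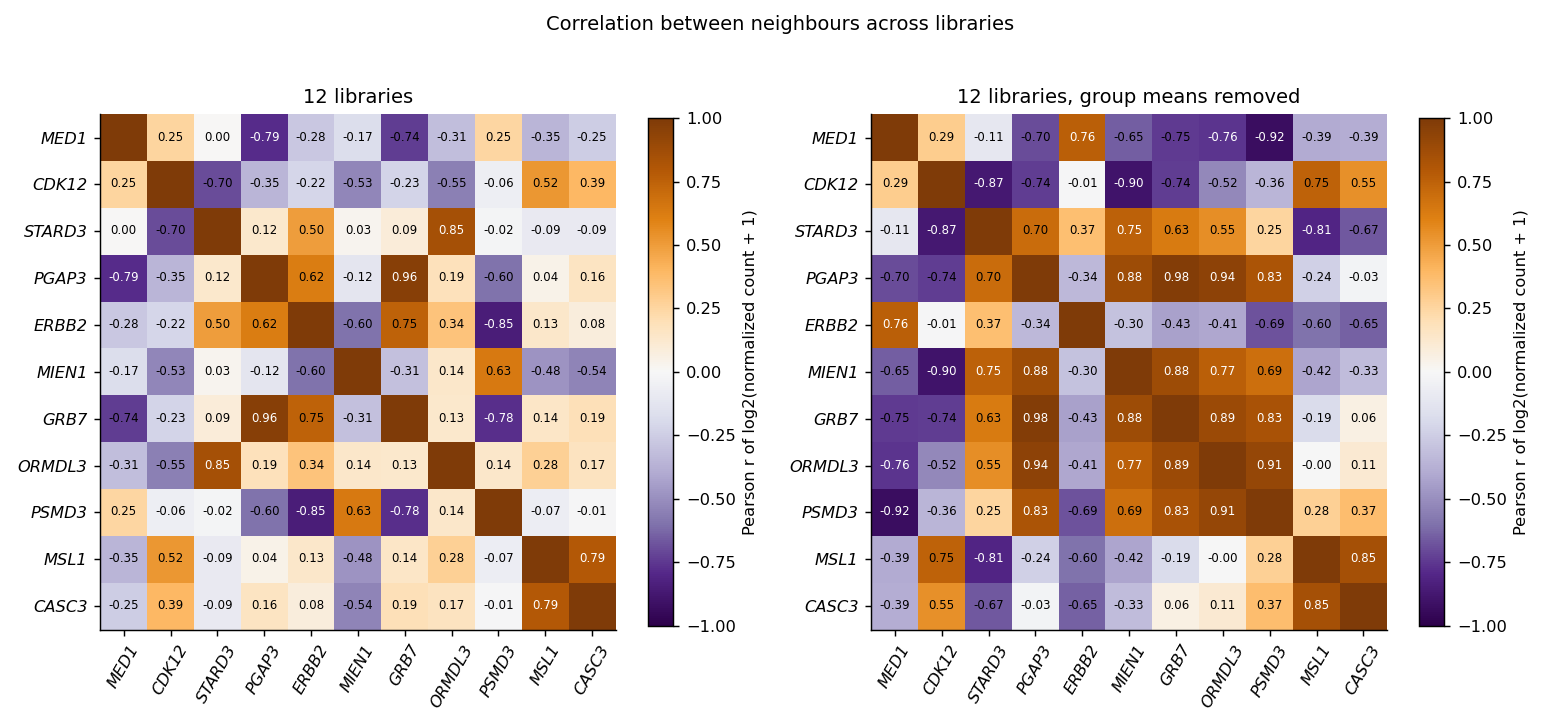
Pearson's r of log2(normalized count + 1) for each pair among ERBB2 and its neighbours, over 12 libraries (left) and with the mean of each group removed (right). GRB7 and PGAP3 show 0.96 and 0.98, while ERBB2 and GRB7 show 0.75 on the left and -0.43 on the right. GSK126 libraries, which spread most, tend to weigh most on the right.

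Among all 14178 other genes tested, the one whose pattern over the 12 libraries was most like each neighbour's, members aside, was MAPK8IP3 for GRB7 (r = 0.992), PRSS27 for PGAP3 (0.977), DNTTIP1 for MIEN1 (0.912) and TKT for PSMD3 (0.961). For ORMDL3 it was C8orf82 (0.96), for MED1 LRP6 (0.962), for CDK12 WNK1 (0.98), for MSL1 PTPN1 (0.99) and for CASC3 SMARCD1 (0.944). STARD3 was most like TCAP (r = 0.984), the next gene on its telomeric side, with BLVRA, which is not among the listed genes of the region, nearly level (0.983). TCAP, which encodes a sarcomere protein, had 204.1, 233.0 and 418.3 normalized counts with both drugs and 506.0, 171.0 and 288.2 with GSK126, against 696.2, 832.3 and 714.2 with lapatinib and 1022, 575.1 and 497.4 with DMSO. In rank of likeness ERBB2 came 1186th for GRB7 and 1705th for PGAP3.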

How the data were processed

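Messenger RNA was measured in 12 SKBR3 libraries as 75 bp reads, per the labels' protocols. Reads were aligned with STAR to hg19 and normalized with DESeq2, per the submitters' processing notes, which give no versions. Each deposited value is a normalized signal, for which the authors had scaled a gene's reads by the size factor of its library. Whole reads were recovered from them (100% of values whole within 0.01), in 22170 genes and 86 spike-ins. Counting, strand and annotation are not given in the sources used here.

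The neighbours, the gene lists and the rule for named genes were chosen with earlier results of these data known. Named genes were the 10 neighbours, ERBB2, up to 2 genes a list and comparison with the smallest adjusted p among those called, and the gene most like each neighbour; GSDMB, MED24, PNMT and TCAP levels were chosen after their values were seen.

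The main test was limma 3.58.1 (R 4.3.3) on log2(value + 1), so fold changes are on that scale, with all 12 libraries, a trended prior variance, genes that reached 10 in 3 or more libraries, and Benjamini-Hochberg adjustment over all genes tested (adjusted p under 0.05). The same test was run on each gene minus ERBB2. edgeR 4.0.16 and DESeq2 1.42.0 ran on the recovered reads as alternatives, beside other pseudocounts, filters, scalings, a fit of the groups compared, a replicate block, the spike-in kind as a term and leaving out each library. The procedure was tested on simulated data. No replicate libraries were duplicates. Precision rests on the depth and on 3 libraries a group.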

Additional observations from a re-analysis of the deposited data

How the results depend on the processing

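For lapatinib against DMSO, where 3 neighbours were called, spike-in scaling called 0, and leaving out 1 library gave 2 to 3. For GSK126 against DMSO (1 called), total-count scaling, spike-in scaling, a fit restricted to the compared groups, the replicate block and the spike-in kind as a term each called 0, and leaving out 1 library gave 0 to 2. For both drugs against lapatinib (0 called), total-count scaling called 2, a fit restricted to the compared groups 5 and DESeq2 1, and leaving out 1 library gave 0 in every case. Over all genes, that restricted fit called 2544 higher and 2433 lower of 13610, against 1637 and 900 of 14179 in the main test. For both drugs against GSK126 (1 called), total-count scaling, spike-in scaling and DESeq2 each called 2, and leaving out 1 library gave 1 to 3. For both drugs against DMSO (4 called), total-count scaling called 2 and spike-in scaling 4, and leaving out 1 library gave 2 to 4. Of the neighbours set against ERBB2, both drugs against lapatinib (4 called) gave 10 in a fit restricted to the compared groups and 2 to 4 without 1 library. Both drugs against GSK126 (3 called) gave 0 in a fit restricted to the compared groups, 0 with the spike-in kind as a term and 0 to 7 without 1 library, and GSK126 against DMSO (0 called) gave 0 to 4 without 1 library. Lapatinib against DMSO (7 called) gave 9 in a fit restricted to the compared groups, 8 with the spike-in kind as a term and 6 to 7 without 1 library. The interaction called 0 of 10 under each alternative run. Of the 50 changes of the 10 neighbours in the 5 comparisons between groups, spike-in scaling turned the sign of 13, of which 11 were not called as deposited and 2 were: GRB7 for both drugs against GSK126 (-0.034) and PGAP3 for both drugs against DMSO (-0.428). The causes were not tested, except that a fit restricted to the compared groups uses fewer libraries. For lapatinib against DMSO over all genes, 1949 rose and 2024 fell, against 2312 and 1476 with total-count scaling and 42 and 743 with spike-in scaling. For both drugs against DMSO, 3114 rose and 2856 fell, against 3920 and 1811 with total-count scaling and 599 and 4111 with spike-in scaling. Deviations of same-numbered libraries did not all correlate above 0.1, and not every library correlated best with its own number (r of deviations from group means of 0.31, 0.35 and -0.13 for numbers 1, 2 and 3 of GSK126 and DMSO), so the numbers were not taken as pairs. Under the block the calls of PSMD3 for lapatinib against DMSO (adjusted p = 0.0552), ORMDL3 for GSK126 against DMSO (0.0551) and STARD3 for both drugs against DMSO (0.0545) and against GSK126 relative to ERBB2 (0.0611) were lost, and no other call changed.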
